A study of Homo sapiens with 117 samples.

Results

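The comparison described here is that of cells treated with 4-hydroxytamoxifen (4-OHT) against untreated cells in IDH1 R132H cells that overexpress the TET1 catalytic domain (TET1 CD). It was chosen by the sample labels and takes in 4 CTCF ChIP-seq samples, 2 untreated and 2 treated with 300 nM 4-OHT for 4 h, out of 117 samples in the series and 24 lists of CTCF peaks analysed. All 4 come from DIvA cells, a U2OS osteosarcoma derivative in which the restriction enzyme AsiSI carries an estrogen receptor domain, and 4-OHT sends this enzyme to the nucleus where it cuts GCGATCGC. All 4 also carry IDH1 R132H, the mutant enzyme that makes D-2-hydroxyglutarate, and all 4 overexpress TET1 CD, so the untreated samples differ from the treated ones in 4-OHT alone as labelled. The comparison asks where CTCF binding differs once double-strand breaks are induced in cells in which an active TET1 domain has been added back. The labels do not say that samples with different numbers came from separate cultures.

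CTCF is a zinc finger protein that binds a long GC-rich motif and, with cohesin, anchors chromatin loops. Its binding to many sites is blocked when CpG in the motif is methylated. TET enzymes oxidise 5-methylcytosine and thereby lead to its removal, and D-2-hydroxyglutarate inhibits them. CTCF is also found at many active promoters.

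Each list gives a position, a summit and a fold value for every peak that the authors called. The fold is the reads at the summit over a background level, and peaks were ranked by it within a list. The lists hold 318590 and 186488 peaks in the untreated samples and 111558 and 115419 in the 4-OHT samples, and so they were compared at equal size, by the 20000 strongest peaks on chromosomes 1 to 22 and X. The last of these peaks had 55 and 58 reads at its summit in the untreated lists and 101 and 119 in the 4-OHT lists. The shortest peak, which follows the fragment length that the peak caller used, was 143 and 141 bp in the untreated lists and 194 bp in both 4-OHT lists. Fragment length and summit reads therefore differ with the treatment in these samples and cannot be told apart from it.

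Lists that agree within counting noise were looked for before any comparison, by the variance of summit reads between 2 lists over the variance that counting allows. The ratio was 0.622 for the 2 4-OHT lists and 0.957 for the 2 untreated lists, below 1 by more than chance in both pairs, and each pair was counted as 1 sample. It was 4.56 between untreated replicate 1 and 4-OHT replicate 1. Agreement of this kind also crossed the labelled groups. The ratio was 0.966 and 0.929 between the 4-OHT lists and the untreated replicate 3 of cells with TET1 dCD, the mutant form of the domain, although those cells had no 4-OHT. It was 0.976 and 0.931 between the untreated TET1 CD lists and untreated replicate 3 of IDH1 R132H cells without a construct. With untreated replicate 4 of the same cells it was 0.993 and 0.947. Both of these lists have run names of untreated IDH1 WT. The run names written inside the lists give the same condition as the label for these 4 samples, but the 4-OHT lists are numbered 3 and 4 there, and runs named TET1 CD with 4-OHT, numbers 1 and 2, are found under the label TET1 dCD untreated (replicates 1 and 2). All 4 lists labelled untreated IDH1 R132H without a construct have run names of IDH1 WT, and the 3 lists labelled untreated IDH1 WT have run names of IDH1 R132H. Groups follow the labels below unless the run names are named. With 1 counted sample per treatment the design gives no test within TET1 CD, and the values below are a description of these lists.

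**Figure D1:**
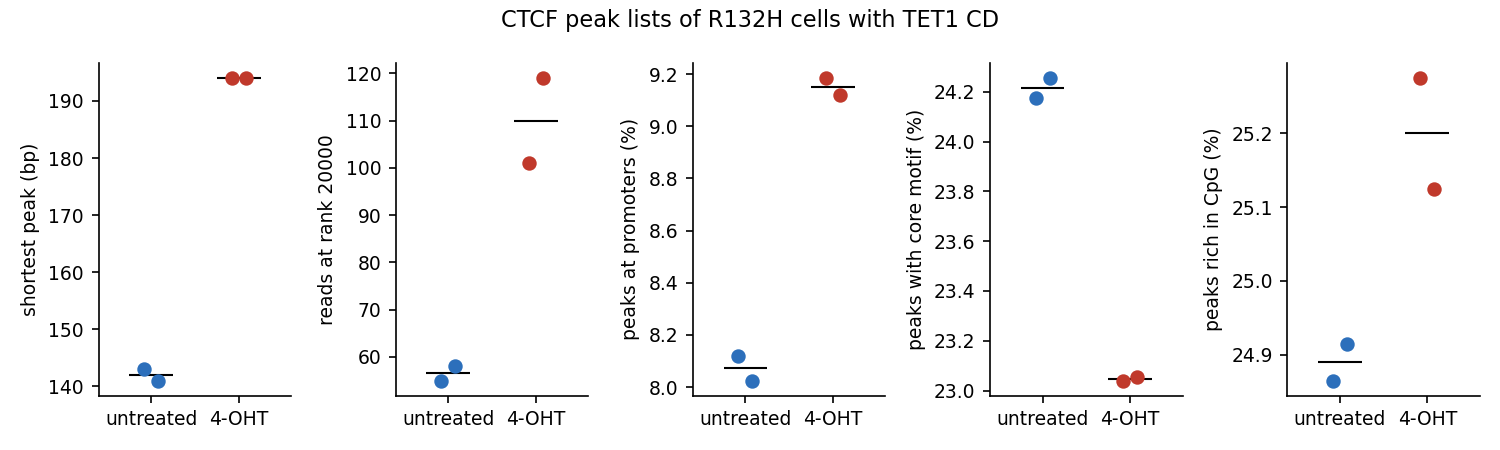
The 4 CTCF peak lists of IDH1 R132H cells with TET1 CD, untreated (blue) and with 4-OHT (red), with each point a list and each line the mean of a pair. The panels give the shortest peak in bp, the summit reads of the peak at rank 20000, and the percent of the 20000 strongest peaks at promoters, with a core motif and rich in CpG, each on an axis that does not start at 0. The pairs do not overlap in any panel.

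Most strong CTCF sites were shared by the treatments. The 20000 strongest peaks of the 4 lists merged to 22586 sites, of which 17067 (75.6%) were held by all 4 lists. There were 1396 sites in both 4-OHT lists and neither untreated list (4-OHT only), which is 6.18% of all sites, and 1364 sites in both untreated lists and neither 4-OHT list (untreated only), which is 6.04%. Of the other sites, 881 were held by both 4-OHT lists and 1 untreated list, and 362 by both untreated lists and 1 4-OHT list. A further 163 were held by 1 list of each treatment, 515 by 1 4-OHT list alone and 838 by 1 untreated list alone. Of the peaks of untreated replicate 1, 95.1% overlapped a peak of untreated replicate 2, and 89.8% and 89.9% overlapped a peak of the 4-OHT lists. Of the peaks of 4-OHT replicate 1, 97.5% overlapped a peak of replicate 2.

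The sites held in 1 treatment alone were mostly sites of intermediate rank that also had a peak in the other. Such a peak need not be binding, as the deposited lists reach down to folds of 2.16 to 2.44, and the untreated lists are the longer ones. At no 4-OHT-only site did both untreated lists lack a peak of any strength, and at 2 untreated-only sites both 4-OHT lists lacked one. The median rank of the 4-OHT-only sites was 17602 and 17508 in the 4-OHT lists and 23142 and 23281 in the untreated lists. The untreated-only sites had median ranks of 16518 and 16682 in the untreated lists and 23812 and 23822 in the 4-OHT lists. The sites nearest to the limit lay at rank 19996 in their weaker 4-OHT list and at rank 20001 in their stronger untreated list, and for untreated-only sites at 20000 and 20003. A rank gap was taken as the best rank in the lists without the site over the worst rank in the lists with it. It reached 1.5 at 21.6% of the 1396 4-OHT-only sites and at 42.8% of the 1364 untreated-only sites, and it reached 2 at 38 and 173.

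The gene context of the sets differed. Of the 4-OHT-only sites, 240 (17.2%) had their summit within 1 kb of the start of a protein-coding gene, against 65 (4.77%) of the untreated-only sites, 8.51% of the sites in all 4 lists and 8.72% of all sites. Sites outside annotated genes made up 419 of the 4-OHT-only sites (30.01%), 607 of the untreated-only sites (44.5%) and 37.0% of all sites. Peaks in repeated sequence were not removed and count here as sites. Introns of protein-coding genes held 35.5% and 34.6%, and 36.4% of all sites. Exons of protein-coding genes away from promoters held 6.09% and 6.82%, beside 5.79% of all sites. The share at promoters among sites with a rank gap of at least 1.5 was 26.6% (80 sites) for 4-OHT only and 4.79% (28 sites) for untreated only.

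Motif and CpG content followed other patterns. A CTCF core motif, a 12-letter consensus searched on both strands, lay within 50 bp of the summit at 99 4-OHT-only sites (7.09%), 264 untreated-only sites (19.4%), 25.3% of sites in all 4 lists and 22.4% of all sites. Away from promoters the shares were 8.04%, 19.9% and 26.7%, so the lower share of the 4-OHT-only sites was not limited to promoters. In the sequence from 150 bp before to 150 bp after the summit the 4-OHT-only sites held 9.86 CpG on average but a median of 3, while the untreated-only sites held 7.30 on average with a median of 5. The 4-OHT-only sites were thus spread to both ends. At least 20 CpG were found at 293 of them (20.99%) and no CpG at 165 (11.8%), where the untreated-only sites had 90 (6.60%) and 50 (3.67%) and all sites 11.8% and 5.92%. At promoters the mean was 31.1 CpG in 4-OHT-only sites and 16.1 in untreated-only sites. A motif match describes letters in this window and does not show a bound motif. Only exact matches to the consensus counted, so a site without one can still hold a near match.

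**Figure D2:**
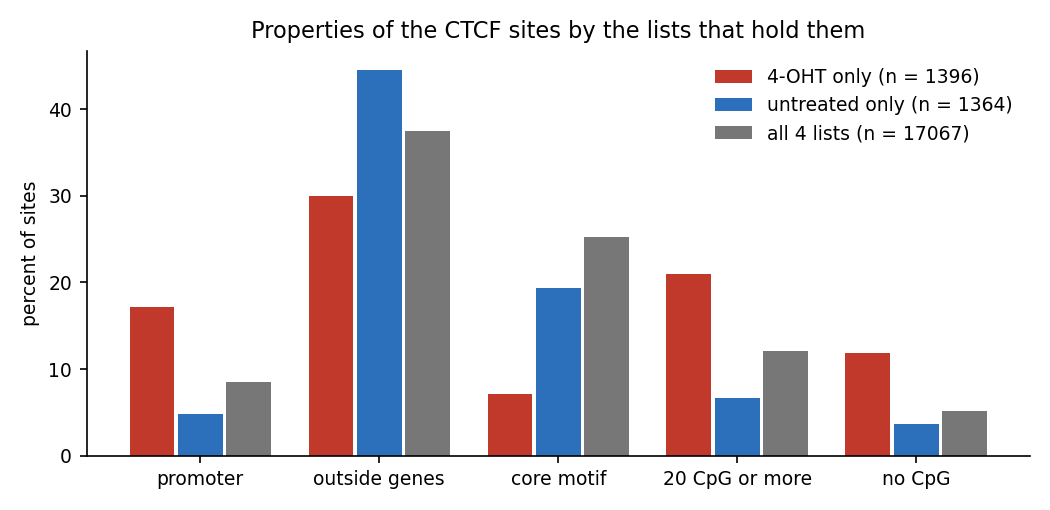
Percent of sites at promoters, outside annotated genes, with a CTCF core motif within 50 bp of the summit, with at least 20 CpG within 150 bp of the summit and with none, for 4-OHT-only sites (red, n = 1396), untreated-only sites (blue, n = 1364) and sites held by all 4 lists (gray, n = 17067). The red bar at promoters reaches 17.2% and the blue bar 4.77%.

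Sequences of 101 bases around the summit are given below for a few of these sites, from GRCh38, plus strand, to show the kinds of site in each set. The first belongs to a 4-OHT-only site near RAD54L and the second to an untreated-only site within the noncoding gene LINC01191, with ACTR3 as the nearest protein-coding gene, and their capitals mark a core motif match.
RAD54L, chr1:46245006-46245106: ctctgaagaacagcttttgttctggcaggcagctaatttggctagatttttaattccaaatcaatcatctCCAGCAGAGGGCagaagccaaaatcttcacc
ACTR3, chr2:113979661-113979761: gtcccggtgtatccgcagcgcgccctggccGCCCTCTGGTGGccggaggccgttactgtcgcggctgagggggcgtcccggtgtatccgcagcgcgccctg
The next 2 belong to 4-OHT-only sites at the promoters of CTCF itself and of CDKN1C, with every CpG in capitals. They hold 15 CpG each.
CTCF, chr16:67562732-67562832: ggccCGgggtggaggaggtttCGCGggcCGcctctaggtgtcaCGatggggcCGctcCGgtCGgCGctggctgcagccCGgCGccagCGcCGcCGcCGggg
CDKN1C, chr11:2885072-2885172: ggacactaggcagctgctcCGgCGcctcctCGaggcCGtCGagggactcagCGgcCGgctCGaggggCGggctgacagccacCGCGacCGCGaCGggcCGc
The last is an untreated-only site outside genes, with KCNF1 as the nearest gene, which holds neither a core motif nor a CpG and so has no capitals. It is a short repeat throughout, and the LINC01191 window above also repeats part of itself. Whether the reads at such sites belong to these places was not tested.
KCNF1, chr2:10953740-10953840: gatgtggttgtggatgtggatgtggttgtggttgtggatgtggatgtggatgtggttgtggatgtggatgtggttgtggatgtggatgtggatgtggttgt

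Among the sites with the widest rank gap, the 4-OHT-only site at the promoter of PTK2, the gene of focal adhesion kinase, ranked 8016 and 8594 in the 4-OHT lists and 28529 and 29608 in the untreated lists. Its summit held 29 reads in each untreated list, against a median of 111 and 117 at the sites in all 4 lists, and 200 and 222 reads in the 4-OHT lists, against medians of 195 and 222. The site thus stood at 0.261 and 0.248 of the common median without 4-OHT and at 1.03 and 1.00 with it. The choice by rank gap sets the treatments apart at every site named here. The promoter of GPHN, which encodes the synaptic scaffold gephyrin, held 29 and 30 reads in the untreated lists and 180 and 204 in the 4-OHT lists. The 4-OHT-only site with the widest gap, 4.88, lay at chrX:90222390-90223506, 300.9 kb from TGIF2LX. It stood at 0.0811 and 0.0855 of the common median in the untreated lists and at 0.677 and 0.685 in the 4-OHT lists. The widest gap among untreated-only sites was 8.10.

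The other sites of the first 10 were not at promoters. By the nearest start of a protein-coding gene they were sites 18.5 kb from TPD52, 22.2 kb from CDK11A, 51.0 kb from SSU72L5, 144 kb from TMEM106B, 172 kb from DDHD1 and 1330 kb from TPTE, and one in an intron of ZNF609, 21.7 kb from the start of OAZ2. They lay at ranks of 6437 to 11296 in the 4-OHT lists and 21039 to 34115 in the untreated lists. None of the 10 had an exact match to the core motif within 50 bp of its summit. At least those near SSU72L5, TMEM106B, OAZ2 and TPTE held near matches. At promoters, the sites after PTK2 and GPHN were those of GMPS (a GMP synthetase), TSPAN17 (a tetraspanin), MTMR3 (a phosphoinositide phosphatase), BICD1 (a dynein adaptor), RUBCN (an autophagy regulator, with the summit inside the neighbouring FYTTD1), STMP1, ADORA2B (an adenosine receptor) and DDX55 (an RNA helicase). The GMPS promoter, chr3:155870050-155871873, held 30 and 32 reads in the untreated lists and 178 and 197 in the 4-OHT lists. The TSPAN17 promoter held 13 and 18 reads in the untreated lists, 0.117 and 0.154 of the common median, and 140 and 154 in the 4-OHT lists, 0.718 and 0.694 of it. These 10 promoter sites held between 27 and 55 CpG within 150 bp of the summit.

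In the other direction, 2 untreated-only sites had no peak in either 4-OHT list. One lay in an intron of SLC39A11, a zinc transporter gene, at chr17:72660614-72661827, with 84 and 90 reads in the untreated lists. The other lay in the noncoding gene SOX1-OT, 4.21 kb from the start of SOX1, a neural transcription factor, with 60 reads in each. The promoter of CGB1, a chorionic gonadotropin beta gene in a cluster of near copies, ranked 2901 and 2185 in the untreated lists and 22636 and 20243 in the 4-OHT lists. Its reads are uncertain because the copies can share them, and the same holds for the neighbouring CGB2 promoter, which held 73 and 96 reads in the untreated lists and 27 and 29 in the 4-OHT lists. The site shown above 41.9 kb from KCNF1 held 111 and 116 reads in the untreated lists and 15 and 14 in the 4-OHT lists, 1.00 and 0.991 against 0.0769 and 0.0631 of the common median. The site within LINC01191, also shown above, held 148 and 145 reads in the untreated lists and 62 and 69 in the 4-OHT lists. It was the one site with an exact match to the core motif among these 10, though at least the sites near TMC6 and SOX1 held near matches.

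The remaining sites of the 10 lay 2.32 kb from the start of ZNF536, 5.098 kb from TMC6, 11.2 kb from THNSL2, 17.0 kb from SSTR2 and, on chromosome 21, 2265 kb from TPTE, at ranks of 2550 to 8462 in the untreated lists and 20417 to 41188 in the 4-OHT lists. The sequences around the summits near THNSL2 and SSTR2 are short repeats, like that near KCNF1, so their reads are uncertain too. Whether the reads at the other named sites of either set, the one on chromosome 21 included, belong to these places was not tested. At promoters the untreated-only sites with the widest gap, after CGB1, were those of RASAL1 (a Ras GTPase-activating protein), CGB2, LSG1 (a GTPase of ribosome assembly), FRMD3, CLUL1, JUP (plakoglobin), EXOC7 (an exocyst subunit), LRFN2 (a synaptic adhesion protein) and NKD2 (a Wnt antagonist). The RASAL1 promoter held 82 and 100 reads in the untreated lists and 20 and 26 in the 4-OHT lists. The JUP promoter held 78 and 108 and then 48 and 60 reads, which is 0.703 and 0.923 of the common median without 4-OHT and 0.246 and 0.27 with it.

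**Figure D3:**
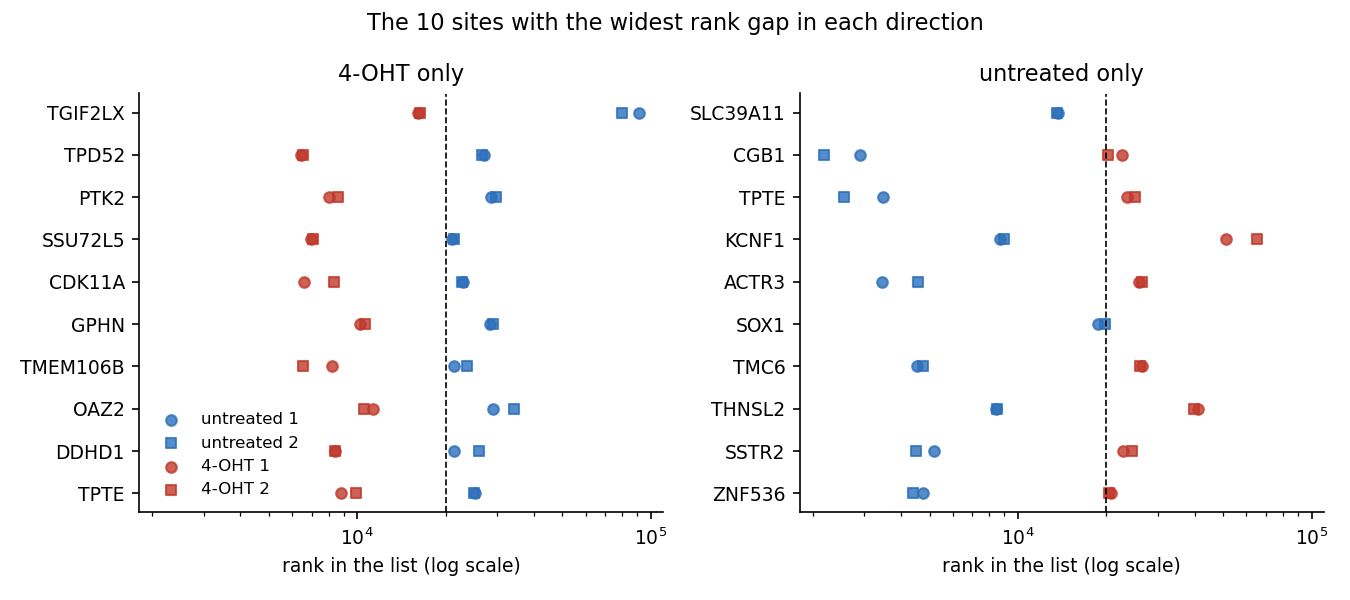
Rank in each of the 4 TET1 CD lists (log scale, 1 is the strongest peak) of the 10 sites with the widest rank gap among 4-OHT-only sites (left) and untreated-only sites (right), named by the nearest protein-coding gene. Blue marks are untreated lists, red marks 4-OHT lists, the dashed line is rank 20000, and 2 sites on the right (SLC39A11 and SOX1) have no peak in the 4-OHT lists and so no red mark. The sites were chosen so that the colors lie on opposite sides of the line.

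The share of these sites in the other 20 lists shows where else they are strong. The untreated replicate 3 of TET1 dCD cells held 1143 of the 1396 4-OHT-only sites (81.9%) among its 20000 strongest peaks and 174 of the 1364 untreated-only sites (12.8%). The untreated replicates 1 and 2 of TET1 dCD cells held 12.5% and 13.3% of the 4-OHT-only sites and 77.6% and 77.3% of the untreated-only sites, so the 3 lists of that group fell on opposite sides. The TET1 dCD lists with 4-OHT held 14.8% and 14.97% of the 4-OHT-only sites and 55.9% and 54.5% of the untreated-only sites. In IDH1 R132H cells without a construct, the 4 untreated lists held 14.8% to 19.2% of the 4-OHT-only sites and the 4 lists with 4-OHT 18.1% to 24.2%. For the untreated-only sites these ranges were 84.6% to 88.6% and 59.8% to 64.8%. The lists labelled untreated IDH1 WT, with run names of IDH1 R132H, held 17.8% to 27.3% of the 4-OHT-only sites and 52.5% to 59.6% of the untreated-only sites. WT lists with 4-OHT held 21.6% to 41.8% of the 4-OHT-only sites and 67.3% to 88.2% of the untreated-only sites.

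Of the 38 4-OHT-only sites with a rank gap of at least 2, 37 were among the 20000 strongest peaks of TET1 dCD untreated replicate 3. The shortest peak of that list was 172 bp, its peak at rank 20000 held 96 reads, and 96.5% of the peaks of each 4-OHT TET1 CD list overlapped one of its own. The list is labelled untreated, and the part of fragment length, of summit reads and of its label in this likeness was not tested.

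**Figure D4:**
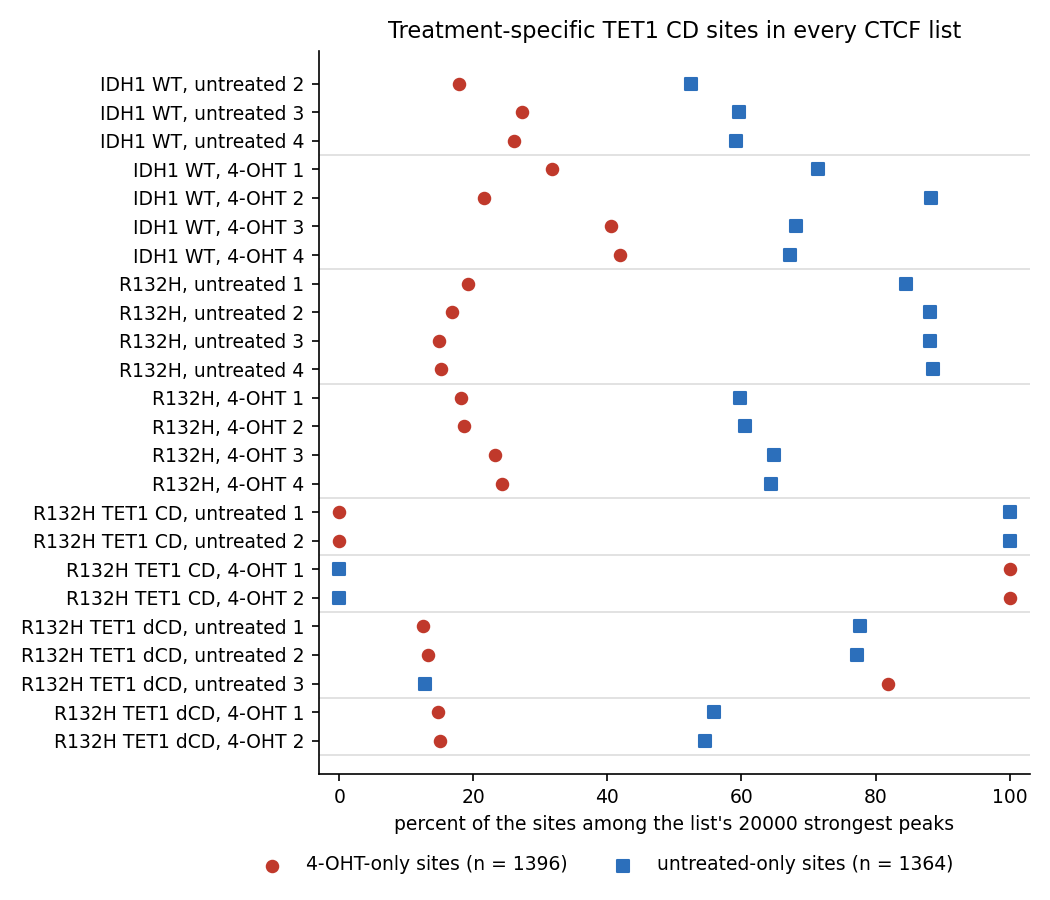
Percent of the 4-OHT-only sites (red circles) and of the untreated-only sites (blue squares) that are among the 20000 strongest peaks of each of the 24 CTCF lists. The 4 TET1 CD lists lie at 0% or 100% because they chose the sites, and among the others TET1 dCD untreated replicate 3 has its red circle at 81.9% and its blue square at 12.8%.

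At the 17067 sites held by all 4 lists, levels were compared as the log2 fold over background after each list was centred on its own median over these sites. The difference of 4-OHT from untreated had an SD over sites of 0.260, against 0.158 between the 2 untreated lists and 0.0965 between the 2 4-OHT lists. The difference reached 1 (a doubling) at 4 sites and -1 at 30. Its median at promoters (n = 1453) was 0.11, with quartiles of -0.05 and 0.32, and the replicate differences there were -0.02 and -0.05. At promoters with at least 20 CpG (n = 933) it was 0.17. At sites with a core motif (n = 4313) the median was -0.07, and at those without one (n = 12754) it was near 0, at 0.0040. With TET1 dCD, untreated replicate 3 differed from untreated replicates 1 and 2 by a median of 0.09 at promoters and -0.09 at sites with a core motif, in a group without 4-OHT. The same medians for 4-OHT against untreated in cells without a construct were -0.01 and 0.10.

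**Figure D5:**
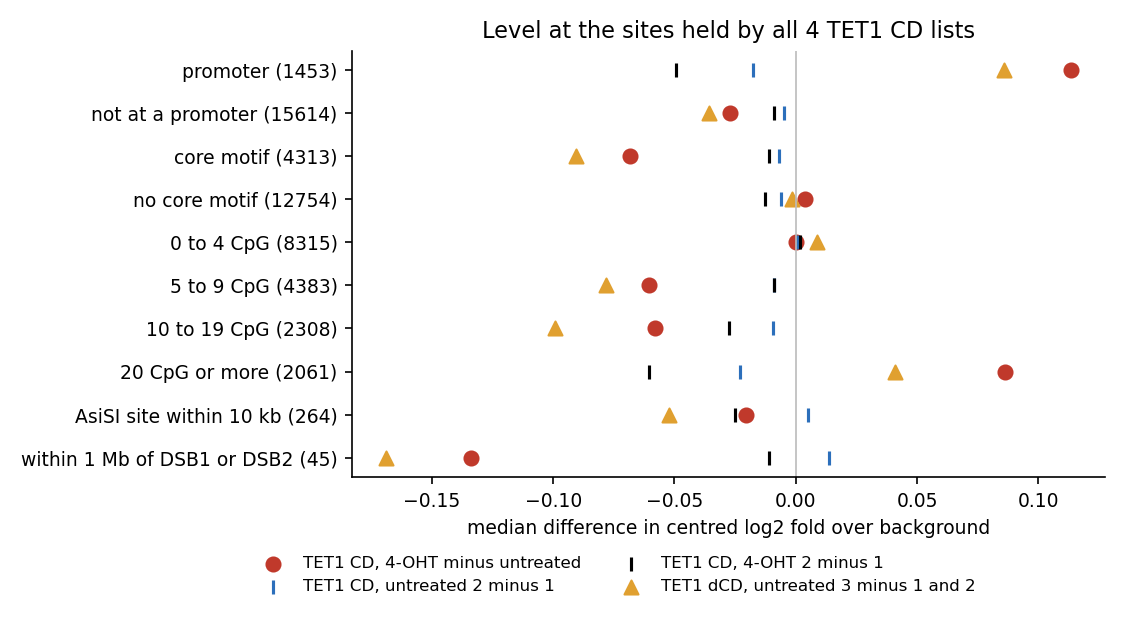
Median difference in centred log2 fold over background at the sites held by all 4 TET1 CD lists, by kind of site, with the number of sites in brackets. Red circles are 4-OHT minus untreated with TET1 CD, blue and black ticks are the differences within the untreated and the 4-OHT pair, and yellow triangles are TET1 dCD untreated replicate 3 minus replicates 1 and 2. Red circles and yellow triangles lie on the same side of 0 at promoters (0.11 and 0.09) and at core motifs (-0.07 and -0.09).

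Over the 20000 strongest peaks of each list, promoters took 8.12% and 8.02% in the untreated lists and 9.19% and 9.12% in the 4-OHT lists, a difference of 1.08 percentage points. This difference was 2.48 points with 10000 peaks, 3.54 with 50000 and 4.50 with all deposited peaks, and 0.396 with groups by the run names, an alternative chosen after seeing the data. Peaks with a core motif took 24.2% and 24.3% in the untreated lists and 23.04% and 23.06% in the 4-OHT lists, a difference of -1.17 points. Peaks with at least 10 CpG within 150 bp of the summit took 24.9% in each untreated list and 25.3% and 25.1% in the 4-OHT lists, a difference of 0.31 points. In these measures the 2 treatments did not overlap and the difference was larger than that between lists of a treatment, but each treatment counts as 1 sample. With every list as its own sample, the two-sided exact permutation test gave p = 0.333 for each, the smallest value that 2 against 2 lists allow.

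The promoter difference was set against that of the other constructs by permuting the construct within each treatment. The promoter share was 8.38% ± 0.841 (SD, n = 2) in untreated and 7.17% ± 0.0212 (SD, n = 2) in 4-OHT samples of TET1 dCD, a change of -1.21 points where TET1 CD had 1.08. Without untreated replicate 3, left out after seeing the data, the TET1 dCD change was -0.61 points and the difference from TET1 CD 1.69 points (adjusted p = 0.556 by exact permutation). The lists then left as untreated TET1 dCD are those whose run names say TET1 CD with 4-OHT. With all lists the 2 changes differed by 2.29 points, which did not pass the exact permutation test (adjusted p = 0.317 over 10 tests). Without a construct the promoter share was 8.67% ± 0.260 (SD, n = 2) in untreated and 7.65% ± 0.377 (SD, n = 3) in 4-OHT samples, a change of -1.02 points. The difference from TET1 CD, 2.10 points, had an adjusted p of 0.278 by the same exact permutation test, and it was 0.25 points with groups by the run names. For the motif share the differences were -0.79 points from TET1 dCD and -1.01 points from no construct, with adjusted p of 0.317 and 0.278 by exact permutation. For the CpG share they were 1.63 and 2.28 points, with the same adjusted p by exact permutation. The smallest unadjusted p that these designs allow is 0.111 against TET1 dCD and 0.0833 against no construct, so neither can pass 0.05, and the lists of some of these groups agree within counting noise with the TET1 CD lists, as given above. The shortest peak was 140, 139 and 172 bp in untreated and 119 and 118 bp in 4-OHT lists of TET1 dCD. Without a construct it was 144 to 150 bp and 121 to 127 bp. It was thus shorter with 4-OHT in both, and longer with TET1 CD. The part of fragment length in these differences was not tested.

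Among the 20000 strongest peaks, AsiSI sites with a CTCF peak nearby differed little in number between the treatments, and this depended on the peaks taken. Of 1220 AsiSI sites on chromosomes 1 to 22 and X, 259 and 253 (21.2% and 20.7%) had a peak summit within 10 kb in the untreated lists and 264 and 258 (21.6% and 21.1%) in the 4-OHT lists, so the pairs overlapped. The difference of 0.41 points is smaller than the 0.492 points between the lists of either treatment. It was 6.02 points when the list size was 50000, 5.29 under the q filter (−log10 q at or above 10) and -11.4 when every deposited peak was used. The exact permutation test with every list as its own sample gave p = 0.667. A peak was within 10 kb in all 4 lists at 233 AsiSI sites, in both 4-OHT lists and neither untreated list at 16, and in both untreated lists and neither 4-OHT list at 8. Of the 4-OHT-only sites, 25 (1.79%) lay within 10 kb of an AsiSI site, against 13 untreated-only sites (0.953%) and 1.51% of all sites. Within 1 Mb the shares were 54.4%, 56.4% and 58.2%. The change in AsiSI sites with a peak differed from that with TET1 dCD by 2.09 points and from that without a construct by 1.86 points, with adjusted p of 0.417 and 0.317 by exact permutation.

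The following AsiSI sites were chosen after their values were seen. The peak summit was 0.011 kb from the AsiSI site at the promoter of PLD5 and 0.029 kb from that at the promoter of MYLIP, a ubiquitin ligase gene, and the ranks there were 20178 and 22268, and 21569 and 22491, in the untreated lists. In the 4-OHT lists the ranks were 15250 and 14610 at PLD5 and 14740 and 16019 at MYLIP. On the other side, the peak near the AsiSI site at the promoter of EEF1A2, an elongation factor gene, ranked 11499 and 13861 in the untreated lists and 26507 and 26516 in the 4-OHT lists. Whether these sites were cut was not measured in these files.

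The AsiSI sites taken here as the study's DSB1 and DSB2, those inside RBMXL1 and ASXL1, had no 4-OHT-only site within 1 Mb. The study prints other coordinates for both, and that the ASXL1 site is its DSB2 was not established. All values given here for DSB2 are those of the ASXL1 site and may not concern the study's DSB2. DSB1 lies within RBMXL1 at chr1:88992913-88992920, where 21 of 23 merged sites within 1 Mb were held by all 4 lists. Of the merged sites, 2 lay within 10 kb of it. The site 8.89 kb away ranked 14708 and 16854 in the untreated lists and 14786 and 15517 in the 4-OHT lists, with 79, 74, 143 and 160 reads. The site 5.96 kb away ranked 20038 and 12905 in the untreated lists and 16844 and 15819 in the 4-OHT lists, so the untreated lists lay on both sides of the 4-OHT lists. The site taken as DSB2 lies within ASXL1 at chr20:32358509-32358516, where 24 of 26 sites were held by all 4 lists. No peak within 10 kb of DSB2 was among the 20000 strongest of any of the 4 lists, and the best there ranked 43374 and 44878 in the untreated lists and 62501 and 67579 in the 4-OHT lists. These weak peaks held 15, 16, 12 and 13 reads. They lay 1666, 1709, 237 and 3440 bp from the site, so their ranks do not follow a single peak. One untreated-only site lay in each region, 397 kb from DSB1 and 525 kb from DSB2. Together the regions held 47 and 50 strong peaks in the untreated lists and 47 in each 4-OHT list, and the exact permutation test with every list as its own sample gave p = 1. The change in this number differed by -1.75 from that with TET1 dCD and by -2 from that without a construct, with adjusted p of 0.494 and 0.5 by exact permutation. At the 45 sites of the regions that all 4 lists held, the median centred log2 difference of 4-OHT from untreated was -0.13, and it was -0.17 between TET1 dCD untreated replicate 3 and replicates 1 and 2. The 4-OHT difference there was -0.15 with TET1 dCD, against untreated replicates 1 and 2, and -0.015 without a construct.

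Genes of repair and chromatin were read from lists by whether a site lay within 10 kb of their start, beside 2.74% of 19962 protein-coding genes with a 4-OHT-only site and 1.73% with an untreated-only site. In homologous recombination 3 of 23 genes had a 4-OHT-only site and none an untreated-only site. They were RAD54L, whose product remodels the recombination filament, NBN, a part of the complex that senses breaks, and EXO1, an end-resecting nuclease. The RAD54L site ranked 21618 and 21360 in the untreated lists and 18826 and 19426 in the 4-OHT lists, and the EXO1 promoter 22053 and 22822, and then 16807 and 16010. The NBN site, in an intron, ranked 20909 and 23174 and then 12077 and 12730. None of 11 genes of end joining and none of 12 genes of DNA methylation and 2-hydroxyglutarate metabolism had a site of either set.

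Among 14 genes of cohesin and loop formation, CTCF alone had a 4-OHT-only site, at its own promoter, chr16:67562078-67563817. It ranked 24914 and 22748 in the untreated lists and 13865 and 10808 in the 4-OHT lists, and held 52 CpG within 150 bp of its summit. Of 17 imprinted genes, CDKN1C (a cell cycle inhibitor) and H19 (a noncoding RNA) had a 4-OHT-only site. The CDKN1C promoter ranked 26767 and 35022 in the untreated lists and 14058 and 15066 in the 4-OHT lists, and the H19 site 20857 and 24972, and then 17069 and 19063. Of 17 p53 targets, PLK3, a stress kinase gene, had a 4-OHT-only site at ranks 28911 and 31583 without and 18569 and 17990 with 4-OHT. ZMAT3, an RNA-binding protein gene, had an untreated-only site at ranks 18482 and 17929, and then 21082 and 20042. No test was made of these counts.

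The sets were spread unevenly over the chromosomes. The 4-OHT-only share of all sites was highest on chromosomes 13 (41 of 398, 10.3%), 8 (105 of 1040, 10.1%) and X (47 of 495, 9.49%) and lowest on chromosome 17 (44 of 1134, 3.88%). The untreated-only share was highest on chromosome 17 (118 sites, 10.4%) and chromosome 19 (77 of 854, 9.02%) and lowest on chromosome 3 (44 of 1399, 3.15%). At the sites held by all 4 lists, the median centred log2 difference of 4-OHT from untreated ran from -0.10 on chromosome 20 to 0.07 on chromosome 8. Between TET1 dCD untreated replicate 3 and replicates 1 and 2 it was -0.14 on chromosome 20 and 0.06 on chromosome 8. For 4-OHT against untreated without a construct it was 0.031 on chromosome 20 and 0.209 on chromosome 8. With TET1 dCD, against untreated replicates 1 and 2, the 4-OHT difference was -0.029 and 0.103.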

How the data were processed

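CTCF ChIP-seq was analysed from the 24 peak lists that the authors deposited, 1 per sample, without pooling. Per the study's methods and the submitters' processing notes, reads were trimmed with cutadapt 1.18, mapped to GRCh38 with Bowtie2 (2.3.4.1 in the notes) and passed to MACS2 with input as control. Each deposited fold is a ratio of summit reads plus 1 to a background plus 1. In the 4 lists a single background level per list gave back every fold, so the fold holds no local correction by input. The authors deposited −log10 p and −log10 q columns made from the same counts, of which −log10 q served as a filter in an alternative. No value is normalized between lists. Reads were recovered from the steps between fold values, and 100% came out whole within 0.1 read in the 4 lists. With an assumed effective genome of 2.7 Gb, their depth in units of 1e6 reads was 33.5 and 35.9 (untreated) and 34.6 and 41.7 (4-OHT). Depth sets the counting error of these reads, and its part in the number of peaks called or passing the q filter was not tested.

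The 20000 peaks highest in fold were taken per list, ties in a seeded random order, and peaks sharing at least 1 bp were merged. Genes came from GENCODE release 44. Counting noise was compared over the 50000 strongest peaks, for summits within 60 bp with a mean of 20 to 50 reads. Its rule joined both pairs of TET1 CD lists to 1 sample each. Replicate numbers did not pair the treatments (correlation of replicate differences 0.040 over 17067 sites). Measures were tested with exact two-sided permutations in Python 3 with scipy, with Benjamini-Hochberg adjustment over the 10 tests between constructs. Steps were tested on simulated data. The named sites are, in each direction, the 10 with the widest rank gap and the 10 widest at promoters, with DSB1, DSB2 and genes of the lists within 10 kb of a treatment-specific site. The members and lists were chosen with earlier results of these data known. The 4C-seq samples were not analysed here.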

Additional observations from a re-analysis of the deposited data

Results flagged for a closer look

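In IDH1 R132H cells without a construct, untreated replicate 1 held 84.6% of the untreated-only sites among its 20000 strongest peaks, below the other 3 untreated lists, which lay between 88.0% and 88.6%. It was picked out as a sample far from the others of its group, 1 of 21 checks made, and chance alone picks about 1 group in 20.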

How the results depend on the processing

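With 20000 peaks, the counts were 1396 4-OHT-only and 1364 untreated-only sites. The 50000 strongest peaks gave 6116 and 4087, all deposited peaks 8672 and 25170, and a −log10 q of at least 10 gave 6217 and 2045. Requiring no peak at all in the other treatment left 0 and 2. Leaving out each list in turn gave 1644 to 1863 and 1544 to 1795. Grouping by run names, an alternative chosen after seeing the data, left 57 and 160 with all 4 4-OHT runs, and 595 and 399 with runs 1 and 2.

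The difference in AsiSI sites with a peak was 6.02 points with 50000 peaks and 5.29 with the q filter, and it turned to -0.0820 with 10000 peaks, -11.4 with all peaks, -0.369 within 100 kb and -0.287 by run names, and without each list it ran from 0.164 to 0.656. The DSB1 and DSB2 count turned to 12 with 50000 peaks, 14.5 with the q filter and 0.5 within 10 kb, and without each list ran from -3 to 0. The motif difference turned to 0.17 points with 50000 peaks and 3.12 with all peaks. The CpG difference turned to -1.65 at 5 CpG and -0.13 by run names. The promoter difference, 1.08 points, was 0.396 by run names, 0.943 within 5 kb, 2.48 with 10000 peaks, 3.54 with 50000, 3.09 with the q filter and 4.50 with all peaks. Without each list, it ran from 1.03 to 1.13, the motif difference from -1.21 to -1.13 and the CpG difference from 0.235 to 0.385.

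Against no construct, the DSB difference became 1.5 with 10000 peaks and 23.2 with 50000, the motif difference 1.51 with 50000, and the AsiSI and CpG differences -0.649 and -0.58 by run names, where the promoter difference was 0.25 points. Against TET1 dCD, the DSB and motif differences became 31.8 and 1.24 with 50000 peaks. Without TET1 dCD untreated replicate 3, left out after seeing the data, the differences were 1.48 (AsiSI), -1 (DSB), 1.69 (promoter), -0.63 (motif) and 1.28 (CpG). With every list as its own sample, the promoter and motif differences from no construct, 1.90 and -1.06 points, passed (adjusted p = 0.0222 by exact permutation). The cause of these changes was not tested.

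A replicate block cannot change a difference of means between 2 and 2 paired lists, which stays by construction at 0.41 (AsiSI), -1.5 (DSB), 1.08 (promoter), -1.17 (motif) and 0.31 (CpG), and 0.5 is the smallest p that 2 pairs allow. Only 2 lists a treatment, within counting noise of each other, limit every result.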
